A study of Mus musculus with 60 samples.

Results

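The genes described here are the cyclin-dependent kinase inhibitors Cdkn1a, Cdkn1b, Cdkn1c, Cdkn2a, Cdkn2b and Cdkn2c and the p53 target genes Mdm2, Ccng1, Trp53inp1 and Gdf15, as measured in heart, gastrocnemius muscle and neocortex of aging mice. Every probe set whose only gene symbol was a listed gene was taken, which gave 16 probe sets for 9 of the 10 genes, out of 45101 probe sets and 18193 genes. Gdf15 was not analysed here, since no probe set in the probe-to-gene table carried its symbol. Trp53, the gene for p53 itself, is not among these genes. It belongs to the p53 pathway list counted below, and its own values are not given. All mice were individually housed male B6C3F1 hybrids (C57BL/6 crossed with C3H/He) on an AIN93M-based diet. Young controls were 5 months old. Old controls, old CR mice and old resveratrol mice were 30 months old, and the last 2 groups had received a calorie-restricted diet (40% restriction by the labels, a smaller cut by the weekly calories in the study's methods) or the control diet with resveratrol at 4.9 mg per kg body weight from 14 months of age. Each tissue and group was measured on 5 Affymetrix mouse genome arrays, called biological replicates in the labels, which makes 60 arrays. The arrays hold whole tissue RNA, in which fewer cells of a type and less RNA per cell cannot be told apart.

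The transcription factor p53 is activated by DNA damage and other stress and switches on genes that arrest the cell cycle, repair DNA or start apoptosis. Its best known arrest target is Cdkn1a (p21), which with Cdkn1b (p27) and Cdkn1c (p57) forms the CIP/KIP family, inhibitors that bind a broad range of cyclin-CDK complexes. The INK4 proteins encoded by Cdkn2a (p16; the locus also encodes p19ARF), Cdkn2b (p15) and Cdkn2c (p18) block CDK4 and CDK6 only, and p16 is widely used as a marker of cell senescence. Mdm2 is both a p53 target and the ubiquitin ligase that degrades p53, Ccng1 (cyclin G1) is a p53 target that recruits a phosphatase to Mdm2, and Trp53inp1 is a stress-induced nuclear protein that promotes p53 phosphorylation and autophagy. Most cells of adult heart, skeletal muscle and neocortex do not divide, so these genes are studied there chiefly as readouts of stress, quiescence and senescence.

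The bases before the transcription start are shown for Cdkn1a, Cdkn1b, Mdm2 and Ccng1, since transcript levels of these genes changed in one or more tissues, and they let the p53 targets be compared with Cdkn1b. They come from RefSeq (GRCm38.p6), are printed 5′ to 3′ in the direction of transcription and end at the base before the start. Capitals mark matches to the p53 motif (the consensus repeat unit of p53 response elements, searched by its consensus), the GC box GGGCGG, the FOXO motif TGTTTAC and the E-box CACGTG on either strand. No marked motifs overlap.
Cdkn1a, first start, chr17:29090729-29090978, plus strand: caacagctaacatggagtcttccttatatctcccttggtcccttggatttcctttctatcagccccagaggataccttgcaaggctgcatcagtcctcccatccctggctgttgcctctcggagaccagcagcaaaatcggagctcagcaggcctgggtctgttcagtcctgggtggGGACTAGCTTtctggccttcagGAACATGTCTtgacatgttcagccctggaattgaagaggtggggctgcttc
Cdkn1a, second start, chr17:29093519-29093768, plus strand: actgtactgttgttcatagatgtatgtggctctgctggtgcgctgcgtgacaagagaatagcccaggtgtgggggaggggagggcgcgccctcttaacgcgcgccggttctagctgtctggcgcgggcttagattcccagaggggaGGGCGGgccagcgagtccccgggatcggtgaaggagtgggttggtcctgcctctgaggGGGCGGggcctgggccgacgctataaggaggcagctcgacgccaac
Cdkn1b, chr6:134920151-134920400, plus strand: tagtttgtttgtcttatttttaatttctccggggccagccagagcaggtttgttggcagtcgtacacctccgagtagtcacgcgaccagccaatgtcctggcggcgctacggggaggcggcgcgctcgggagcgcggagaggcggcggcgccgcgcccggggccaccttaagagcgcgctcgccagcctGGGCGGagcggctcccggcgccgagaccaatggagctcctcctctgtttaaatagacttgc
Mdm2, chr10:117710759-117711008, minus strand: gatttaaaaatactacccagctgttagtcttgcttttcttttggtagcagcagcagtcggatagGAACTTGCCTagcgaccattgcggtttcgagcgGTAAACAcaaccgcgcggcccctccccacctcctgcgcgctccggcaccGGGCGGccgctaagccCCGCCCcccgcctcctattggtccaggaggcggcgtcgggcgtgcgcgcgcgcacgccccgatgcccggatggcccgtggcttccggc
Ccng1, chr11:40755287-40755536, minus strand: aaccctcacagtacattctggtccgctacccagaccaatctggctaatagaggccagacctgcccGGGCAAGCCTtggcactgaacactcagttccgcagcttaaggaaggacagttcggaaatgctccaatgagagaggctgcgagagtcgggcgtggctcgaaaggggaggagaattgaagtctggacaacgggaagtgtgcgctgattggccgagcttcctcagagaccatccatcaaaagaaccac
The upstream start of Cdkn1a had 2 matches to the p53 motif, beginning 73 and 51 bases before the start, and no GC box, whereas its other start had 2 GC boxes and no p53 motif. Mdm2 had 1 p53 motif, 1 FOXO motif read on the opposite strand and 2 GC boxes. Ccng1 had 1 p53 motif 185 bases before the start, and Cdkn1b had a single GC box. The table held 12 windows of 250 bases for 8 of the 10 listed genes, and 3 of the 12 had a p53 motif, against 7.13% of all 32851 promoter windows. GC boxes were found in 5 of the 12 and in 32.7% of all windows, the FOXO motif in 1 of the 12 and in 3.17%, and the E-box in 1 of the 12 and in 6.02%. These matches describe the letters of the windows and are no evidence of binding.

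Each gene was represented by its brightest probe set, and genes entered the test of a tissue if that probe set, by its mean log2 signal over 20 arrays, was not among the dimmest 40% of probe sets, a cut-off of 60.4 in heart, 69.3 in muscle and 57.3 in neocortex. By this rule 8 of the 9 measured genes were tested in every tissue. Cdkn2a was not: its only probe set lay at percentile 39.5 (heart), 17.3 (muscle) and 11.7 (neocortex), with signals between 2.69 and 169.9 over the 60 arrays, so that its transcript was not detectable well enough for a comparison. Signals of the other representing probe sets ranged over the 60 arrays from 14.4 (Cdkn2b, neocortex) to 47651 (Ccng1, muscle). Cdkn2b was the next member above the cut-off, at percentile 42.4 in neocortex.

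Several array-level values moved with the groups and stand beside the results below. In heart, the log2 ratio of 3′ to 5′ beta-actin control signals, a measure of RNA degradation or incomplete labelling, was 1.26 to 1.66 in the 5 old controls and 0.613 to 0.955 in the 15 other arrays. In neocortex it was 0.453 to 0.603 in old controls, 0.664 to 0.771 in old CR and 0.755 to 1.01 in old resveratrol mice, so that the old controls did not overlap with either diet. In muscle it was 1.11 in young control replicate 4 and 1.40 in old control replicate 1, called the 2 outlying arrays of that tissue. It was 0.578 or less on the other 18 arrays. Muscle old CR replicate 2 also had its group's lowest median correlation with the other arrays (0.880) and highest actin ratio (0.437). It was not counted as outlying and was kept where those 2 were left out. The mean log2 signal of the 12 poly-A spike-in probe sets was 6.40 to 8.10 on the 10 muscle control arrays and 9.16 to 10.6 on the 10 muscle arrays of either diet, so in muscle a difference in sample handling between controls and diets and the diets themselves cannot be told apart. In neocortex that mean was 8.49 to 9.25 in old controls and 9.46 to 10.04 in old resveratrol mice, again without overlap, so the same holds for resveratrol there, while the CR arrays (8.48 to 9.58) overlapped with the old controls. The log2 ratio of 3′ to 5′ signals of a second control, Gapdh, was -0.0836 to 0.253 in the heart old controls and -0.142 or lower on all other heart arrays. In muscle it was -0.218 to 3.23 in old controls and -0.301 to -0.232 on the 10 diet arrays, which did not overlap. The markers of heart muscle, skeletal muscle fibres and neurons fixed for the purpose all passed the filter in their own tissue, at or above percentile 98.9 (heart), 99.6 (muscle) and 94.4 (neocortex).

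Between 0 and 4 of the 8 tested members were called in each comparison, each count being read against the share of all genes called there. With age, old controls against young controls, 2 members rose and 1 fell of 8 in heart (10.8% of all 13285 genes were called there), 1 rose and 1 fell in muscle (0.429% of 12831 genes), and none was called in neocortex (1.46% of 13057 genes). The heart count includes Cdkn2b, which passed the filter through the old groups, where it was higher. The mean of its young controls (log2 5.26) lay below the cut-off (5.92). Under CR, old CR against old controls, 1 member fell in heart (22.0% of all genes called), 3 rose and 1 fell in muscle (31.2%), and 2 rose in neocortex (30.6%). Under resveratrol, against the same old controls, 1 rose and 1 fell in heart (17.5%), 3 rose in muscle (18.7%), and 2 rose in neocortex (26.2%). The median log2 difference of the 8 members lay between -0.06 and 0.34 in the 9 comparisons, against -0.03 to 0.10 for all genes tested. The largest medians were those of muscle, 0.34 under CR and 0.21 under resveratrol, where all genes had medians of 0.10 and 0.07. The count of 0 for age in neocortex (limma) stood beside 0 members at an unadjusted p under 0.05 and 0 by the methods' t-test. The diet comparisons and the age comparison share the old controls, so a change with age and an opposite change under a diet are not independent of each other.

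**Figure D1:**
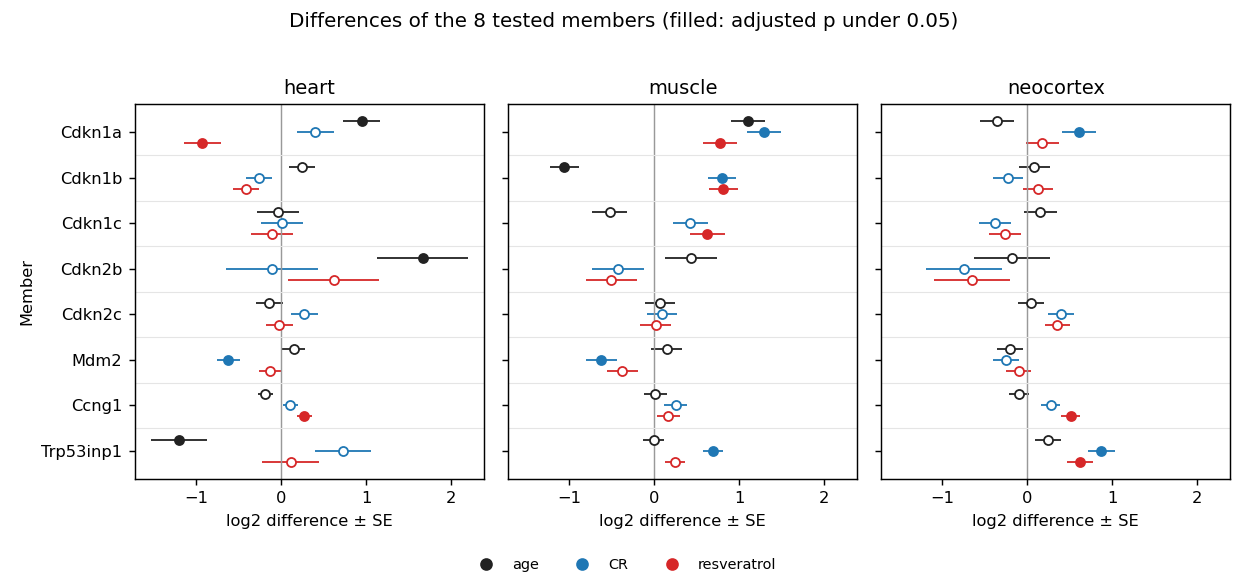
Log2 differences (x axis, ± SE from limma) of the 8 tested members (y axis) in heart, muscle and neocortex for age (black, old control against young control), CR (blue) and resveratrol (red, both against old control), 5 arrays a group. Filled points passed an adjusted p of 0.05. The filled Cdkn2b point for age in heart is set against young controls with a mean below the filter's cut-off. Cdkn1a lies to the right of 0 for age in heart and muscle and for CR in all 3 tissues, and its heart value for resveratrol, -0.93, is the only filled point to the left of 0 in that gene's rows.

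Cdkn1a, the CDK inhibitor that carries out p53-dependent arrest, was the member called in most comparisons. In heart its signal (probe set 1424638_at) was 787, 936, 656, 838 and 808 in young controls. In old controls it was 1484, 1728, 1200.2, 3162 and 900.4, in old CR mice 2377, 1634, 1816, 2011 and 2506, and in old resveratrol mice 900.3, 1030.5, 630.5, 698 and 859. The old controls were the most spread group, with 1 array at 3162 and 1 within the range of the young controls, while all 5 CR arrays lay above every resveratrol and every young array. Cdkn1a rose with age in heart by 0.95 ± 0.22 (SE) on the log2 scale (1.93-fold; adjusted p = 0.0060), with 1 old control within the young range. It fell by 0.93 ± 0.22 under resveratrol (adjusted p = 0.0039), again with overlap, and the difference under CR, 0.40 ± 0.22, did not pass (adjusted p = 0.197). Set against each other, the diets differed: Cdkn1a was 2.52-fold higher in old CR than in old resveratrol hearts (log2 1.33 ± 0.22, adjusted p = 0.00087), with no overlap. The old control hearts also had the highest 3′ to 5′ ratios of actin and Gapdh, and the part of this in the age and resveratrol values was not tested. Young control replicate 1 and old control replicate 4 are called the 2 outlying heart arrays. Each had the lowest median correlation with the other arrays of its group (0.837 and 0.865) and that group's highest actin ratio (0.874 and 1.66). Without them the age difference was 0.68 (adjusted p = 0.0187), the resveratrol difference -0.67 (0.0072) and the CR difference 0.66 (0.0066). Cdkn1a then passed in both diets with opposite signs. Old control replicate 4 was also the highest Cdkn1a array (3162), so leaving it out lowers the old control mean that both diets are set against. By the methods' t-test on log2 signal neither the age nor the resveratrol difference in heart reached the methods' threshold. When the 2 Cdkn1a probe sets were averaged, the heart calls were lost, with values of 0.37 for age (adjusted p = 0.599), -0.40 for resveratrol (0.535) and 1.002 for CR against resveratrol (0.155). The other probe set in that average was below the filter in heart.

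In muscle the order of the groups was different. Cdkn1a signals were 336, 706, 558, 530.3 and 406 in young controls and 982, 928, 1517, 911 and 1062 in old controls. They were 3347, 2109.6, 3151, 2046 and 2620.1 in old CR and 2168, 1424, 1996, 1461 and 2202 in old resveratrol mice. Every old control lay above every young control, and every CR array lay above every old control. With age Cdkn1a rose 2.16-fold (log2 1.11 ± 0.20, adjusted p = 0.00999), and it rose further under CR, 2.46-fold (1.30 ± 0.20, adjusted p = 8.9e-05), and under resveratrol, 1.71-fold (0.78 ± 0.20, adjusted p = 0.0097), where 1 old control overlapped with the resveratrol arrays. CR against resveratrol was 0.52 ± 0.20 and did not pass (adjusted p = 0.265). Without the 2 outlying muscle arrays the values were 1.17, 1.27 and 0.75, all still called. With averaged probe sets the age call was lost (0.19, adjusted p = 0.82). A second Cdkn1a probe set, 1421679_a_at, was below the filter in heart and neocortex and dim in muscle, where its signal was 10.2 to 311. It passed the filter only through the diet groups, since the means of both control groups (log2 6.07 and 5.34) lay below the cut-off (6.12) and 4 of the 5 old controls did. Its differences, 2.48 ± 0.61 under CR and 2.02 ± 0.61 under resveratrol, are therefore set against a group near background and given as a description. Its age difference was -0.73 ± 0.61 (adjusted p = 0.609).

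In neocortex Cdkn1a signals were 371, 728, 809, 662 and 723 in young controls, 473, 594, 649.6, 304 and 542 in old controls, 703, 759.7, 709, 809 and 819 in old CR and 588, 797, 572, 504 and 415 in old resveratrol mice. The CR arrays were the tightest group and lay above all old controls. Cdkn1a rose 1.53-fold under CR (0.61 ± 0.20, adjusted p = 0.021). The call was lost without old control replicate 4, the lowest array, where the difference was 0.44 (adjusted p = 0.0802), and with averaged probe sets (0.75, adjusted p = 0.0987). The age difference, -0.36 ± 0.20, and the resveratrol difference, 0.18 ± 0.20, did not pass. The differences between tissues were tested in a model of all 60 arrays and 11111 genes. That model treated the tissues as taken from different mice, since the labels do not tie arrays of different tissues to a mouse. The age change of Cdkn1a was higher in heart than in neocortex by 1.31 ± 0.32 (adjusted p = 0.0087, 4.91% of all genes called) and higher in muscle than in neocortex by 1.47 ± 0.32 (adjusted p = 0.0153, 0.459%). Its CR change was lower in heart than in muscle, with heart minus muscle at -0.89 ± 0.32 (adjusted p = 0.0283, 27.5% of all genes called). Its resveratrol change in heart was lower than in muscle, at -1.71 ± 0.32 (adjusted p = 4.9e-05, 23.0%), and lower than in neocortex, at -1.11 ± 0.32 (adjusted p = 0.0209, 7.41%).

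**Figure D2:**
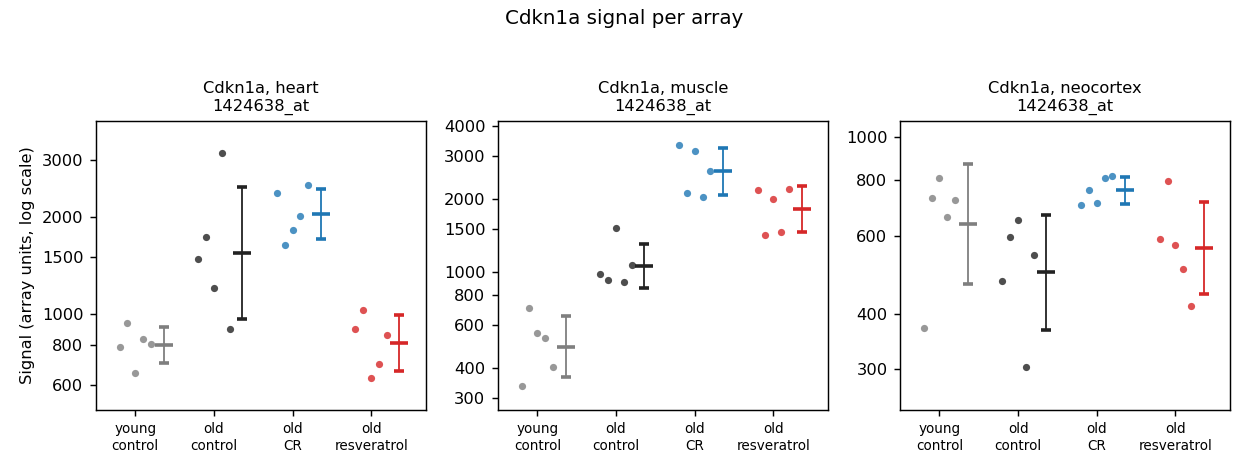
Cdkn1a signal (probe set 1424638_at, array units, log scale) on each of the 60 arrays, for each tissue and group. Every point is an array, and the bar beside them is the mean and SD of the log2 values, drawn back on the signal scale (5 arrays a group). In heart the CR arrays (1634 to 2506) and resveratrol arrays (630.5 to 1030.5) lie apart, and in muscle both diets lie mostly above the old controls.

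The genes whose log2 signal followed Cdkn1a most closely over the 20 arrays of a tissue were Plin5, a lipid droplet protein (Pearson r = 0.86), Tacc2 (0.85) and Xdh, the gene for xanthine dehydrogenase (0.83), in heart. In muscle they were Rrm2, a ribonucleotide reductase subunit (0.95), Lgals3, the lectin galectin-3 (0.92), and Sln, the calcium pump regulator sarcolipin (0.91). In neocortex they were Tmem222 (0.74), Med10, a Mediator subunit (0.74), and Atrip, the partner of the checkpoint kinase ATR (0.68). These correlations describe 20 arrays each that share the same groups and outlying arrays, and they carry no test.

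Cdkn1b, which holds cells in quiescence, was called in all 3 comparisons with the old controls in muscle and in none in heart or neocortex. Its muscle signals (probe set 1434045_at) were 2295, 2684, 2715, 1427 and 2171 in young controls and 959, 1270, 926, 1078 and 1093 in old controls. In old CR mice they were 1409.6, 2384, 1772, 1744 and 2040.5, and in old resveratrol mice 2072, 1416, 2112, 1929 and 1884. All old controls lay below every array of the 3 other groups. With age Cdkn1b fell by 1.06 ± 0.17 on the log2 scale (adjusted p = 0.0035). It rose 1.74-fold under CR (0.80 ± 0.17, adjusted p = 0.0015) and 1.76-fold under resveratrol (0.82 ± 0.17, adjusted p = 0.0020), and the diets differed from each other by -0.02 ± 0.17. Cdkn1a and Cdkn1b therefore changed in opposite directions with age in muscle and in the same direction under both diets. In heart the Cdkn1b differences were 0.25 ± 0.15 with age, -0.26 ± 0.15 under CR and -0.41 ± 0.15 under resveratrol, none past the threshold (adjusted p = 0.338, 0.241 and 0.0632), although the CR arrays did not overlap with the old controls, and in neocortex they were between -0.23 and 0.13. The age change in muscle was lower than that in heart by 1.30 ± 0.25 (adjusted p = 0.00066, 7.69% of all genes called) and lower than that in neocortex, with muscle minus neocortex at -1.14 ± 0.25 (adjusted p = 0.0172). The CR change was higher in muscle than in heart, with heart minus muscle at -1.06 ± 0.25 (adjusted p = 0.0011), and higher than in neocortex by 1.03 ± 0.25 (adjusted p = 0.0018, 23.0% of all genes called). The resveratrol change was also higher in muscle than in heart, with heart minus muscle at -1.23 ± 0.25 (adjusted p = 0.00020). The other Cdkn1b probe set, 1419497_at, was below the filter in muscle and was called in no comparison.

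Cdkn1c, the remaining CIP/KIP inhibitor and an imprinted gene, rose in muscle under resveratrol (1.54-fold, 0.63 ± 0.21, adjusted p = 0.0363) and in no other comparison. Its muscle signals were 601, 485, 553, 466 and 519.7 in old controls, 524, 733, 916, 1089 and 890.5 in old resveratrol mice and 476, 636, 633, 1091 and 809.8 in old CR mice. The lowest resveratrol array overlapped with the old controls, and the call was lost when any of 7 single arrays was left out. The muscle differences with age, -0.53 ± 0.21, and under CR, 0.42 ± 0.21, had the signs of those of Cdkn1b but did not pass (adjusted p = 0.249 and 0.119). In heart its differences were between -0.11 and 0.01, and in neocortex between -0.38 and 0.16.

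Of the INK4 genes, Cdkn2b was called with age in heart. Its heart signals were 37.9, 131, 23.9, 31.8 and 21.8 in young controls and 165, 55.3, 83.3, 182 and 191 in old controls. They were 166, 62.7, 146, 52.7 and 229.6 in old CR and 245, 232, 138, 253 and 114 in old resveratrol mice. Of the young arrays 4 lay below the filter's cut-off of 60.4, as did 1 old control, and the young array at 131 overlapped with the old controls. The old groups overlapped with one another. The mean of the young controls (log2 5.26) was also below the cut-off (5.92), so the gene entered the test through the old groups, where it was higher. The difference, 1.67 ± 0.54 (adjusted p = 0.047), is thus set against a group near background, and no fold is given. The call was lost when any of 14 of the 20 heart arrays was left out and under several other settings. In muscle the Cdkn2b differences were 0.44 ± 0.30 with age, -0.43 ± 0.30 under CR and -0.50 ± 0.30 under resveratrol, and in neocortex they were -0.18, -0.74 and -0.65 with SE of 0.45, none past the threshold. The neocortex means of old CR (log2 5.61) and old resveratrol (5.70) lay below that tissue's cut-off (5.84). Cdkn2b thus entered the test there through the control groups, and its diet differences involve groups near background. Cdkn2c was called in no comparison by limma as run for the main results. Its closest result was CR in neocortex, where signals of 294, 297, 245, 288 and 243 in old CR mice lay above 175, 208, 206, 225 and 226 in old controls with no overlap (0.39 ± 0.15, adjusted p = 0.0516). It was called there by every form of the methods' t-test, and by limma with quantile normalization, the stricter filter, eBayes without trend, only the compared groups or the replicate block. The resveratrol difference in neocortex was 0.36 ± 0.15 (adjusted p = 0.0866). Without the 2 outlying heart arrays Cdkn2c also passed under CR in heart (0.39, adjusted p = 0.021, from 0.27 with all arrays).

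Mdm2, the ligase that limits p53, fell under CR in heart. By its representing probe set 1423605_a_at the heart signals were 791, 710.4, 692, 630.5 and 735 in old controls, 483, 366, 454, 561 and 465 in old CR and 603, 590.4, 731, 612 and 727 in old resveratrol mice. All 5 CR arrays lay below all arrays of the other old groups. Mdm2 fell by 0.62 ± 0.13 under CR (adjusted p = 0.0015). CR and resveratrol differed by -0.49 ± 0.13 (adjusted p = 0.037), and Cdkn1a and Mdm2 were the 2 of 8 members that differed between the diets in heart (4.0% of all genes called). The Mdm2 call of that comparison was lost when any of 8 single arrays was left out, without the filter (adjusted p = 0.0527), with only the compared groups (0.07), with the replicate block (0.0608), by the methods' t-test after adjustment and with averaged probe sets (-0.12, adjusted p = 0.906). In muscle, Mdm2 fell under CR by 0.62 ± 0.19 (adjusted p = 0.0151), with signals of 2215, 1926, 1888, 2154 and 2148 in old controls and 2486, 1009.6, 1004, 1368 and 1248 in old CR mice. The first of these CR arrays lay above all old controls and the other 4 lay below them, and the call was lost by the methods' t-test, with only the compared groups (adjusted p = 0.0513) and with averaged probe sets (-0.39, adjusted p = 0.115). The resveratrol difference in muscle was -0.37 ± 0.19 (adjusted p = 0.167), and in neocortex the differences were -0.25 under CR and -0.10 under resveratrol. No age difference of Mdm2 passed, the values being 0.15 in heart, 0.15 in muscle and -0.21 in neocortex.

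A second Mdm2 probe set, 1427718_a_at, gave another picture. In muscle its signals were 1251, 1340.3, 1379, 598 and 1213 in young controls and 737, 1054, 1033, 1229 and 1025 in old controls. They were 375, 197, 277, 319 and 276 in old CR and 303, 277, 252, 257 and 348 in old resveratrol mice. Both diets lay below all controls, and the 2 outlying arrays were the lowest controls. The spike-in signals of muscle diets and controls did not overlap either, and their part in these values was not tested. This probe set fell under both diets, with log2 differences of -1.83 ± 0.21 under CR and -1.81 ± 0.21 under resveratrol (adjusted p = 2.99e-06 and 6.75e-06, adjusted over all probe sets), a 3.55-fold and a 3.51-fold lower signal. In heart and neocortex its differences were between -0.09 and 0.16 and none passed. The fall under CR in heart was thus seen with 1423605_a_at and not with 1427718_a_at, whereas in muscle both fell under CR by different amounts. When all probe sets of a gene were averaged, the CR value of Mdm2 in heart changed sign to 0.03 (adjusted p = 0.965). That average takes in the remaining Mdm2 probe set, 1457929_at, which was below the filter in every tissue, whereas 1427718_a_at passed it in every tissue.

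**Figure D3:**
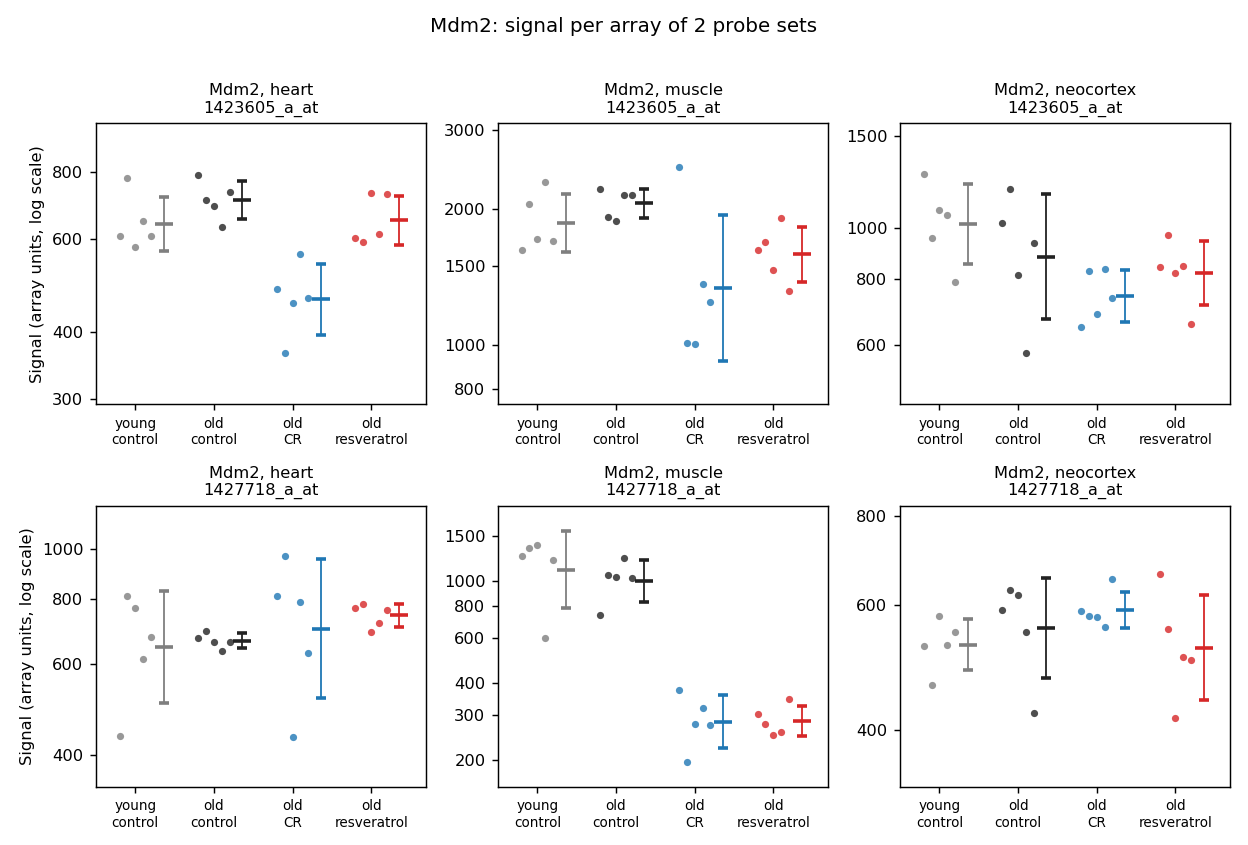
Mdm2 signal (array units, log scale) per array for the representing probe set 1423605_a_at (top) and for 1427718_a_at (bottom) in heart, muscle and neocortex, with the mean and SD of log2 values (5 arrays a group). In muscle 1427718_a_at separates all 10 diet arrays (197 to 375) from all 10 control arrays (598 to 1379), and in heart only 1423605_a_at separates CR from the old controls.

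Ccng1, cyclin G1, was bright in all tissues. Its 3 probe sets were all called up under resveratrol in heart, but they differed in amount there and disagreed in muscle. By the representing probe set 1420827_a_at Ccng1 rose under resveratrol in heart, 1.21-fold (0.28 ± 0.09, adjusted p = 0.0285), with signals of 18110, 18487, 20558, 19573 and 16906 in old controls and 21352, 23782, 22277, 21965 and 23837 in resveratrol mice, which did not overlap. It also rose in neocortex, 1.43-fold (0.51 ± 0.11, adjusted p = 0.0016), from 2566, 2243, 2332, 2048 and 1991 to 3013, 2682, 3531, 4097 and 2775, again without overlap. Under CR it did not pass in any tissue, with values of 0.11 ± 0.09 in heart, 0.26 ± 0.13 in muscle and 0.28 ± 0.11 in neocortex, and no age difference passed. The heart call was lost when any of 5 single arrays was left out, and the neocortex call with averaged probe sets (0.24, adjusted p = 0.133).

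The probe sets 1450016_at and 1450017_at had larger differences in heart, with the same signs as 1420827_a_at. In muscle they fell under the diets, where 1420827_a_at did not. In heart 1450016_at had signals of 10522, 16004, 18136, 19496 and 16265 in young controls and 7074, 6447, 6006, 4756 and 6262 in old controls. It had 12487, 16381, 16745, 11294 and 12661 in old CR and 15674, 15194, 12107, 13756 and 10488 in old resveratrol mice. The 5 old controls lay below every other heart array. It fell with age by 1.38 ± 0.15 (adjusted p = 1.3e-06) and rose under CR by 1.18 ± 0.15 and under resveratrol by 1.13 ± 0.15. In the same arrays 1450017_at fell with age by 0.71 ± 0.12 and rose by 0.54 ± 0.12 and 0.63 ± 0.12. The heart old controls were also the 5 arrays with the highest 3′ to 5′ ratios of actin and Gapdh. In muscle the direction was the opposite. There 1450016_at had 21827, 22320, 21640, 9269.6 and 18593 in young controls and 8561, 19611, 19840, 18820 and 21208 in old controls, against 3482, 6850, 5481, 5052 and 4338 in old CR and 4264, 5927, 5136, 4839.5 and 4882 in old resveratrol mice. Among the 10 control arrays the 2 outlying ones, with the high actin ratios, were at 9269.6 and 8561 and the other 8 at 18593 or above, while every diet array was at 6850 or below. It fell under both diets (-1.77 ± 0.25 under CR and -1.75 ± 0.25 under resveratrol, adjusted p = 2.46e-05 and 4.66e-05), and so did 1450017_at (-0.93 ± 0.14 and -1.06 ± 0.14). The actin ratios of the muscle diet arrays were -0.154 to 0.578 and those of the other 8 control arrays -0.468 to 0.0861, while the spike-in signals of diets and controls, and the Gapdh ratios of diets and old controls, did not overlap. The parts of the actin and Gapdh ratios and of the spike-in signal in these values were not tested. In neocortex neither probe set was called.

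**Figure D4:**
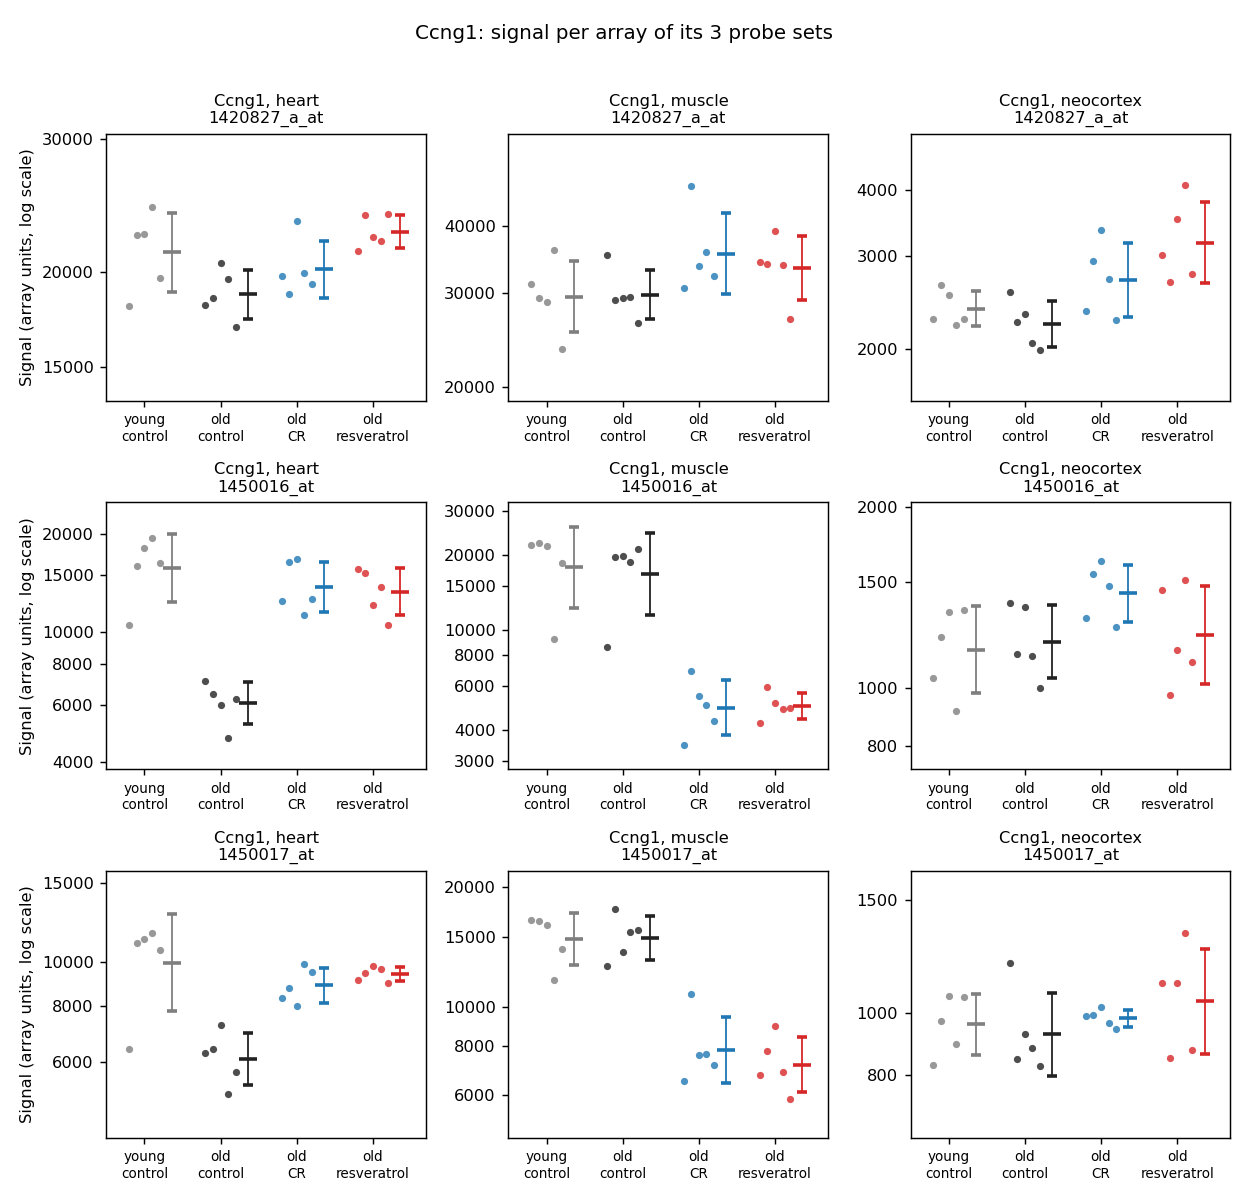
Ccng1 signal (array units, log scale) per array for its 3 probe sets (rows) in heart, muscle and neocortex (columns), with the mean and SD of log2 values (5 arrays a group). The lower rows fall in heart old controls and in both muscle diet groups, and the top row, 1420827_a_at, has no called fall.

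Trp53inp1, a stress-induced cofactor of p53, fell with age in heart and rose under CR in muscle and neocortex. Its heart signals (probe set 1416926_at) were 4805, 1058, 783, 850.1 and 703 in young controls and 657, 375, 651, 428 and 541 in old controls. They were 789, 803, 939, 1088 and 712 in old CR and 556, 484, 719, 602 and 468 in old resveratrol mice. Young control replicate 1 stood far above all other arrays, but all young arrays lay above all old controls, as did all CR arrays. The age difference was -1.20 ± 0.33 (adjusted p = 0.0204) and -0.63 (adjusted p = 0.0341) without the 2 outlying arrays, so that much of its size rested on them. The CR difference, 0.73 ± 0.33, did not pass with all arrays (adjusted p = 0.121) and passed without those 2 (0.66, adjusted p = 0.0080). The resveratrol difference was 0.11 ± 0.33. As the old control hearts had the highest 3′ to 5′ ratios of actin and Gapdh, these heart values stand beside them too. Their part in the Trp53inp1 values was not tested.

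In muscle the Trp53inp1 signals were 1336, 1430, 1308, 1521 and 1439 in old controls, 2588, 2260.2, 2312, 2033 and 2208 in old CR and 1328, 1659, 1723, 1739.8 and 1943 in old resveratrol mice. The CR arrays lay above all arrays of both other groups. The gene rose 1.62-fold under CR (0.69 ± 0.12, adjusted p = 0.00028), and under resveratrol the difference was 0.25 ± 0.12 (adjusted p = 0.169). The diets differed by 0.45 ± 0.12, which did not pass by limma (adjusted p = 0.094) and reached the methods' threshold by their t-test. In neocortex the signals were 311, 429, 337, 385 and 355 in old controls, 408, 869, 662, 661 and 815 in old CR and 539, 721, 510.5, 478 and 556 in old resveratrol mice. Trp53inp1 rose there under both diets, 1.83-fold under CR (0.87 ± 0.16, adjusted p = 0.00020) and 1.54-fold under resveratrol (0.62 ± 0.16, adjusted p = 0.0050), and the resveratrol arrays did not overlap with the old controls. With averaged probe sets the calls under CR in muscle (0.12, adjusted p = 0.715) and under resveratrol in neocortex (0.34, adjusted p = 0.0917) were lost. The neocortex actin ratios also separated both diets from the old controls, as the spike-in signals did for resveratrol, and their part in the Trp53inp1 and Ccng1 values was not tested. With age the differences were -0.01 in muscle and 0.24 in neocortex. The age change in heart was lower than that in muscle, at -1.20 ± 0.35 (adjusted p = 0.0250), and lower than that in neocortex, at -1.45 ± 0.35 (adjusted p = 0.0086). Its CR changes, which had the same sign in all 3 tissues, were not called different between any of them. The mean of the dimmer probe set 1416927_at in heart old controls (log2 5.38) lay below the cut-off (5.92), and the probe set passed the filter through the other groups. Its heart differences, -2.48 ± 0.49 with age, 2.49 ± 0.49 under CR and 1.69 ± 0.49 under resveratrol, are a description against a group near background. In muscle it did not pass, with values of -0.45 under CR and -0.91 under resveratrol that had the opposite sign to the brighter probe set.

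**Figure D5:**
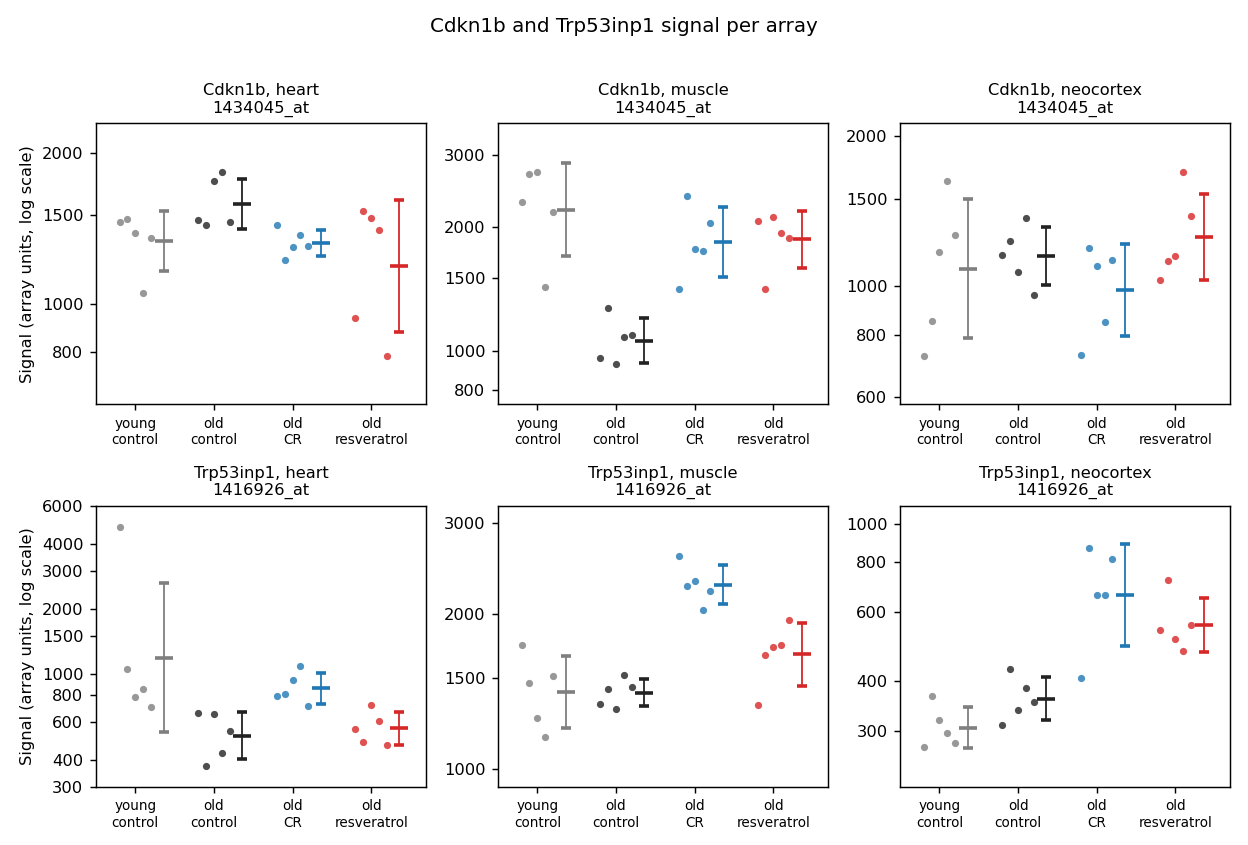
Signals (array units, log scale) of Cdkn1b (top) and Trp53inp1 (bottom) per array in heart, muscle and neocortex, with the mean and SD of log2 values (5 arrays a group). The muscle old controls (926 to 1270.0) are the lowest Cdkn1b arrays of that tissue, and 1 young control heart array (4805) stands far above the other Trp53inp1 arrays.

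Over the probe sets taken one by one, 13 of 16 passed the filter in each tissue. With age 2 rose and 4 fell in heart (12.8% of all probe sets were called), 1 rose and 1 fell in muscle (0.829%), and none was called in neocortex (0.833%). Under CR 3 rose and 1 fell in heart (21.9%), 4 rose and 4 fell in muscle (32.3%), and 2 rose in neocortex (27.7%). Under resveratrol 4 rose and 1 fell in heart (16.6%), 4 rose and 3 fell in muscle (20.7%), and 2 rose in neocortex (25.2%). These counts include the calls of Cdkn2b and 1416927_at in heart and of 1421679_a_at in muscle, in which a compared group lay below the cut-off. In muscle no gene had probe sets called in opposite directions: for Ccng1 2 of 3 fell under the diets and 1420827_a_at was not called, and the called probe sets of Mdm2 under CR and of Cdkn1a under both diets differed in amount. Probe sets of a gene are not replicates, and no reason for their disagreement was tested.

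Compared directly, CR and resveratrol differed in no member in muscle (0.561% of all genes called) or neocortex (9.28%). The limma counts of 0 stood beside 2 members at an unadjusted p under 0.05 in each of these tissues, and beside 1 in muscle and 0 in neocortex by the methods' t-test. Between tissues, no member's CR change differed between heart and neocortex (11.3% of all genes), where 0 of the 8 had an unadjusted p under 0.05. No resveratrol change differed between muscle and neocortex (15.0%), where 3 of the 8 had an unadjusted p under 0.05, those of Cdkn1b and Cdkn1c at adjusted p = 0.0525 and 0.0513.

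Other genes of the p53 pathway, from a list that held 38 genes without the members, were called in both directions. With age 3 rose and 1 fell of 31 tested in heart (10.8% of all genes called), 1 rose of 30 in muscle (0.429%) and 1 fell of 29 in neocortex (1.46%). The muscle and neocortex calls were the same gene, the DNA damage gene Gadd45a. Its differences were 1.60 ± 0.24 in muscle, -0.75 ± 0.18 in neocortex and -0.61 ± 0.20 in heart. In heart the genes that rose with age were the phosphatase gene Ptp4a3 (0.65), the nucleotide excision repair gene Xpc (0.62) and Trp53bp1 (0.57), which encodes the damage response protein 53BP1. Under CR 3 rose and 5 fell in heart (22.0% of all genes called), 2 rose and 6 fell in muscle (31.2%), and 4 rose and 7 fell in neocortex (30.6%). Under resveratrol the counts were 3 and 4 in heart (17.5%), 5 and 4 in muscle (18.7%), and 3 and 5 in neocortex (26.2%). Sesn1, a p53-induced stress protein that restrains mTORC1, rose in heart under CR (1.03 ± 0.19) and resveratrol (0.78 ± 0.19) and in neocortex (0.50 and 0.71). Ptp4a3 fell under CR and resveratrol in heart (-1.18 and -1.62) and neocortex (-0.48 and -0.78), and under CR in muscle (-0.50). In heart the death receptor gene Fas (1.44) and Ccng2 (0.90) rose under CR, and the repair gene Ddb2 (0.92) and Gadd45a (0.80) rose under resveratrol. In muscle the polo-like kinase gene Plk2 (-1.40 and -1.03) and the p53 inhibitor Mdm4 (-0.86 and -0.79) fell under both diets, and Trim13 (-1.03) and Btg2 (-0.83) fell under CR. Ddb2 (-0.90) fell and the polymerase gene Polk (0.89) rose in muscle under resveratrol. In neocortex the apoptosis genes Pmaip1 (1.19, with 3 of 5 old controls below the filter's cut-off) and Perp (0.71) rose and Trp53i11 (-0.67) and Bbc3 (-0.57) fell under CR, and Trp53i11 (-1.0) and Btg2 (-0.56) fell under resveratrol. The list's median differences were between -0.11 and 0.18, against -0.03 to 0.10 for all genes.

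Of a list of CDKs, cyclins, the RB family and their partners and regulators, 2 rose and 5 fell of 34 with age in heart (10.8% of all genes called). Those with the largest differences were the CDK-binding subunits Cks2 (-2.00 ± 0.62) and Cks1b (-1.06 ± 0.30), the replication clamp Pcna (-0.94 ± 0.24) and the kinase Cdk4 (-0.64 ± 0.20). None of 30 was called with age in muscle (0.429% of all genes), and 1 of 31, E2f5, fell in neocortex (-2.34 ± 0.48, 1.46% of all genes). Under CR 5 rose and 1 fell in heart (22.0% of all genes called), 3 rose and 5 fell in muscle (31.2%), and 6 rose and 5 fell in neocortex (30.6%). Under resveratrol the counts were 3 and 1 (17.5%), 1 and 2 (18.7%), and 2 and 5 (26.2%). The cyclin gene Ccnd2 fell under CR in all 3 tissues (-0.71 in heart, -0.67 in muscle and -0.53 in neocortex) and under resveratrol in heart (-0.43), and Pcna rose in heart under both diets (0.69 and 0.74). The dimerization partner Tfdp2 rose under CR in heart (1.31 ± 0.18) and fell in muscle under both diets (-0.90 and -0.92). Rbl2, an RB relative that acts with E2F factors in quiescent cells, fell in muscle (-1.34 and -0.95), and Cks1b rose there under both diets (1.14 and 1.08). E2f5 rose under CR in muscle (1.06) and neocortex (1.39). In heart the kinase gene Cdk2 (0.66) rose under CR, and the INK4 gene Cdkn2d (0.62) and the cyclin gene Ccnh (0.37) rose under resveratrol. In neocortex Cks1b rose (0.78 and 0.43) and the cyclin D1 gene Ccnd1 fell (-0.54 and -0.37) under CR and resveratrol, and under resveratrol Ccne2 rose (0.49) and the phosphatase gene Cdc25b fell (-0.48).

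Genes of the integrated stress response, the pathway of ATF4 and CHOP through which Gdf15 is also known to be induced, were counted the same way. With age 5 rose and 2 fell of 18 in heart (10.8% of all genes called), and none of 18 in muscle (0.429%) or 19 in neocortex (1.46%) was called. Under CR 3 rose and 5 fell in heart (22.0% of all genes called), 5 rose and 2 fell in muscle (31.2%), and 5 rose and 3 fell in neocortex (30.6%). The counts under resveratrol were 3 and 3 (17.5%), 2 and 2 (18.7%), and 1 and 6 (26.2%). In heart the glutathione-degrading enzyme Chac1 (-1.43 ± 0.31) and Nupr1 (-0.81 ± 0.19) fell with age, and the autophagy receptor gene Sqstm1 (0.73 ± 0.11) and Ddit3 (0.64 ± 0.13), which encodes CHOP, rose. Chac1 rose there under CR (1.71) and resveratrol (1.12). The transcription factor gene Atf5 fell in heart (-1.78 and -1.57), muscle (-0.59 under CR and -0.78 under resveratrol) and neocortex (-0.82 and -0.69). The serine synthesis enzyme gene Phgdh rose in muscle (0.96 under CR and 0.69 under resveratrol). Of the other genes with the largest differences, Herpud1 (1.24) rose and Aldh18a1 (-0.94) fell in heart under CR, and Nupr1 (0.85) rose and Sqstm1 (-0.77) fell there under resveratrol. In muscle Chac1 (0.98) and Ppp1r15a (0.68) rose and Sqstm1 (-0.75) fell under CR, and Shmt2 (0.38) rose and the kinase gene Eif2ak3 (-0.68) fell under resveratrol. In neocortex Slc7a11 (0.77) rose and Aldh18a1 (-0.84) fell under CR, Ppp1r15a (-0.55) and Chac1 (-0.31) fell under resveratrol, and Psat1 rose under both (0.44 and 0.36). These 3 lists were chosen with earlier results of these data known.

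Markers of other cell types moved with some of the same comparisons, and their part in the results was not tested. For age, CR and resveratrol in turn, the shares of all genes called were 10.8%, 22.0% and 17.5% in heart. They were 0.429%, 31.2% and 18.7% in muscle and 1.46%, 30.6% and 26.2% in neocortex. In heart 4 of 8 macrophage markers rose under CR and 5 of 8 under resveratrol, with summed signals of 11460 to 15730 in old controls, 18200 to 22090 in CR and 15860 to 24180 in resveratrol hearts. Of 6 fibroblast markers in heart 3 fell with age and 2 and 3 rose under the diets, with sums of 27970 to 44960 in young and 16920 to 35940 in old controls. In muscle 4 of 6 endothelial markers fell under each diet, with sums of 4047 to 5851 in old controls, 2508 to 3226 in CR and 2845 to 3618 in resveratrol muscle. There 3 of 7 tested macrophage markers rose under each diet, the sums being 4680 to 6287, 6158 to 12090 and 6677 to 14200. Of 8 tested markers of denervated fibres 2 rose with age in muscle, Gadd45a and the acetylcholine receptor subunit Chrna1 (1.11 ± 0.19), with sums of 3542 to 4258 in young and 4655 to 6791 in old controls. Under CR 3 of the 8 fell, Gadd45a (-0.64), Chrna1 (-0.53) and the embryonic myosin gene Myh3 (-1.01), with sums of 3604 to 6503, and under resveratrol Myod1 rose (0.81) and Myh3 fell (-1.06), with sums of 5153 to 8567. In neocortex 4 of 7 microglial markers rose with age and 4 of 7 under resveratrol, while none rose and 2 fell under CR, and 2 and 3 of 6 neuron markers fell under CR and resveratrol. Of 5 markers of oligodendrocytes and astrocytes there, the astrocyte filament gene Gfap rose with age (1.76 ± 0.19) and fell under CR (-1.84 ± 0.19) and resveratrol (-1.17 ± 0.19), the glutamate transporter gene Slc1a3 fell under CR (-0.38) and the water channel gene Aqp4 rose under resveratrol (0.46). Their sums were 30110 to 36890 in young controls, 33850 to 39180 in old controls, 29950 to 35940 in CR and 32850 to 38560 in resveratrol mice.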

How the data were processed

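Labeled RNA of heart, gastrocnemius muscle and neocortex was hybridized by the authors to Affymetrix mouse genome arrays, and the deposited values are GCOS 1.2 signal intensity per probe set, which the authors scaled so that every array has the same trimmed mean, 500. All 60 columns were used and 0 columns of per-sample values were left out. Signals below 1 were set to 1 before log2. Probe sets with exactly 1 symbol in GEO's platform annotation were named, the probe set with the highest mean log2 signal over the 60 arrays represented its gene, and the dimmest 40% of probe sets in a tissue were left out. The 4 groups of a tissue entered 1 linear model (limma 3.58.1 in R 4.3.3, eBayes with an intensity trend), with Benjamini-Hochberg adjustment over all genes tested and a threshold of 0.05. Differences between tissues came from a model of all 60 arrays that treated the tissues as taken from different mice. Promoter sequences were read from RefSeq tables (GRCm38.p6), and figures were drawn with matplotlib 3.10.9. Named genes were every member, the 4 called genes of each pathway list with the largest differences in a tissue and comparison, and the 3 genes most correlated with Cdkn1a in each tissue. Some of these genes are also given in other comparisons, chosen after their values were seen, and not every call of a list gene is printed. The members and lists were chosen with earlier results of these data known. On simulated data for the CR comparison, genes changed by a log2 of 1 were found at 62.7% in heart, 71.2% in muscle and 90.9% in neocortex, among 13285, 12831 and 13057 genes. The number of arrays, 5 a group, limits the precision. The labels call the arrays biological replicates.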

Additional observations from a re-analysis of the deposited data

Results flagged for a closer look

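Among the 96 groups of 5 arrays of the tested members, 9 held an array that stood apart from the others by Dixon's criterion, which chance alone gives in about 1 in 20 groups. These were Cdkn1a in neocortex young control replicate 1 (signal 371), Cdkn1b in heart young control replicate 4 (1049) and muscle old resveratrol replicate 2 (1416), Cdkn2b in neocortex old CR replicate 2 (14.4), Ccng1 in heart old CR replicate 3 (23379) and Trp53inp1 in heart young control replicate 1 (4805). Cdkn2c had 3 such arrays, heart young control replicate 1 (1402), heart old control replicate 4 (1118) and muscle old CR replicate 2 (2188).

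By the interaction term of the model over all 60 arrays, which tested 8 members in each comparison, the change of a member differed between tissues in 12 cases. The share of all 11111 genes called is given beside each comparison. With age, Cdkn1b (1.30) and Trp53inp1 (-1.20) differed for heart minus muscle (7.69% of all genes called). Cdkn1a (1.31) and Trp53inp1 (-1.45) did for heart minus neocortex (4.91%), and Cdkn1a (1.47) and Cdkn1b (-1.14) for muscle minus neocortex (0.459%). Under CR, Cdkn1a (-0.89) and Cdkn1b (-1.06) differed for heart minus muscle (27.5%) and Cdkn1b (1.03) for muscle minus neocortex (23.0%). Under resveratrol, Cdkn1a (-1.71) and Cdkn1b (-1.23) differed for heart minus muscle (23.0%) and Cdkn1a (-1.11) for heart minus neocortex (7.41%). For heart minus muscle under either diet, calls were about as frequent among the 8 members as among all genes.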

How the results depend on the processing

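Of the values of single members under other settings, 613 kept their direction and call, 95 kept only the direction and 1 changed sign: Mdm2 under CR in heart was 0.0263 when a gene's probe sets were averaged, against -0.62. Such averages take in probe sets below the filter, for Mdm2 1457929_at. The diet calls of Cdkn1a and Cdkn1b in muscle held in every setting run except that of Cdkn1b under resveratrol with averaged probe sets (adjusted p = 0.0932). The heart counts moved most, from 3 members for age, 1 for CR, 2 for resveratrol and 2 for CR against resveratrol. Without the 2 outlying arrays heart CR had 4 members and 7 probe sets (from 4). eBayes without trend gave 1 for heart age and 1 for heart resveratrol, and no filter gave 1 for heart resveratrol and 1 for CR against resveratrol. With every probe set on its own there were 3 for heart CR and 5 for muscle resveratrol (from 3). Averaged probe sets gave 2 for heart CR, 1 for heart resveratrol, 0 for heart CR against resveratrol, 1 for muscle age (from 2), and 1 for CR and 0 for resveratrol in neocortex (from 2 each). Both forms of the methods' t-test, on log2 and on unlogged signal, gave 0 for heart age, 2 for heart CR and 1 for heart resveratrol at the methods' threshold and after adjustment, 1 for muscle CR against resveratrol (from 0) at that threshold, and 1 for heart CR against resveratrol and 0 for muscle age after adjustment. With only the compared groups heart age had 1, heart CR 2 and muscle age 1 probe set (from 2). Quantile normalization and the signals as deposited left the differences between tissues at 6 for age, 3 for CR and 3 to 4 for resveratrol.

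Leaving out each array in turn gave, for age, CR, resveratrol and CR against resveratrol, 1 to 3, 1 to 2, 1 to 3 and 1 to 3 members in heart, 2 to 2, 3 to 5, 2 to 4 and 0 to 0 in muscle, and 0 to 0, 2 to 4, 2 to 3 and 0 to 1 in neocortex. For age, CR and resveratrol it gave 5 to 6, 4 to 5 and 3 to 6 probe sets in heart, 2 to 2, 8 to 9 and 5 to 8 in muscle, and 0 to 0, 2 to 3 and 2 to 3 in neocortex. In heart the count for age fell to 1 without old control replicate 4, and that for CR was 2 without it or young control replicate 1. That for resveratrol fell to 1 without old control replicate 1, 2 or 5 or resveratrol replicate 5. That for CR against resveratrol fell to 1 without CR replicate 1, 2, 3 or 5 or resveratrol replicate 1, 3, 4 or 5. Resveratrol probe sets in heart fell to 3 without old control replicate 1 or 5 or resveratrol replicate 4. In neocortex CR had 4 members without CR replicate 5 or resveratrol replicate 4, and CR against resveratrol 1 without CR replicate 1. The Mdm2 call under CR in muscle was lost without CR replicate 3 (adjusted p = 0.0501), and that of Trp53inp1 with age in heart without old control replicate 2 or 4. The causes were not tested.

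Samples share only a replicate number: same-numbered arrays deviated together by a median correlation of 0.00673 (heart), 0.0126 (muscle) and 0.0305 (neocortex). With the replicate block, CR against resveratrol had 1 member in heart and CR had 4 in neocortex.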
